A study of Homo sapiens with 4 samples.

Results

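The genes described here are CHCHD3, PLK2, GK5, DCTN5, LYN, ERLIN1, NECAP1 and BNIP2, 8 genes of 18377 measured in lung adenocarcinoma cells after silencing of TAZ. They were chosen by their large decreases after the siRNA named for TAZ (siTAZ), in both cell lines or in A549, among genes that lie in no established TAZ pathway list. Those decreases are therefore reported as a description, with no test. Each gene had 1 probe set with a single gene symbol, and all 8 passed the filter on dim genes, which kept 12740 genes (highest log2 signal at or above 6.13, the median of the table).

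A549 and H441 are established human lung adenocarcinoma lines. Each was transfected with a control siRNA (siNTC) or with siTAZ by a lipid reagent, and total RNA was taken 48 h later. There is 1 whole-transcript array for every pairing of a line with an siRNA, 4 in all and with no replicate, and this number limits the precision of every value. The sequence of siTAZ, and how many duplexes it held, are not stated in the labels. Growth conditions are labelled as standard for both lines, and nothing in the labels says whether the lines were handled at the same time.

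TAZ, encoded by WWTR1, is a transcriptional co-activator that the Hippo kinases keep in the cytoplasm and that reaches DNA through TEAD factors. The 8 genes come from different parts of cell biology. CHCHD3 (MIC19) belongs to MICOS, the complex that holds the cristae of the mitochondrial inner membrane to the outer membrane. PLK2 and LYN encode kinases, the first a polo-like kinase linked to centriole duplication and stress responses, the second a tyrosine kinase of the Src family best known from blood cells. GK5 encodes a member of the glycerol kinase family. DCTN5 is a subunit of dynactin, the adaptor of the dynein motor, NECAP1 an accessory protein of clathrin-coated vesicles, ERLIN1 an endoplasmic reticulum membrane protein linked to degradation of IP3 receptors and to sterol control, and BNIP2 a BCH domain protein that binds the GTPase CDC42.

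WWTR1 itself, the check of the silencing, had log2 signals of 10.04 with siNTC and 7.64 with siTAZ in A549, and of 9.61 and 7.47 in H441, the largest decrease in each line. The array medians lay between 6.05 and 6.25. NKX2-1, the lung lineage factor, was named after its values were seen. On both A549 arrays it read below the filter limit of 6.13 (5.02 with siNTC and 5.01 with siTAZ). In H441 it was at 9.14 and 9.57, so it passed the filter, which takes the highest signal of a gene. Within a culture, less RNA per cell cannot be told apart from fewer cells that express a gene.

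All 8 genes had lower signals with siTAZ than with siNTC in each line. CHCHD3 had log2 signals of 9.72 with siNTC and 8.51 with siTAZ in A549, and of 10.46 and 9.46 in H441. Both siTAZ arrays lay below both siNTC arrays, with 43.1% of the control signal left in A549 and 50.1% in H441. PLK2 was at 10.76 and 9.72 in A549 and at 8.84 and 7.85 in H441. Its decreases were nearly equal, 2.05-fold in A549 and 1.99-fold in H441, from control signals that differed by 1.92 on the log2 scale. The A549 array with siTAZ therefore still read above the H441 array with siNTC.

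GK5 came nearest to the filter limit. Its signals were 7.16 with siNTC and 6.36 with siTAZ in A549, and 8.16 and 7.23 in H441. The decreases were 1.74-fold and 1.91-fold, and the H441 siTAZ array read slightly above the A549 siNTC array. DCTN5 was at 9.51 and 8.61 in A549 and at 10.02 and 9.27 in H441. Both siTAZ arrays lay below both controls, with decreases of 1.87-fold in A549 and 1.68-fold in H441.

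LYN was at 9.21 with siNTC and 8.35 with siTAZ in A549, and at 10.43 and 9.67 in H441. The 2 lines did not overlap for this gene, as they did not for PLK2, GK5 and NECAP1, and the share of all genes without overlap is not given here. Both H441 arrays of LYN read above both A549 arrays, while the decreases were 1.81-fold and 1.69-fold. ERLIN1 was at 10.36 and 9.64 in A549 and at 10.22 and 9.35 in H441. Here the control signals nearly coincided, both siTAZ arrays lay below both controls, and the decrease was larger in H441 (1.83-fold) than in A549 (1.65-fold).

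NECAP1 and BNIP2 had unequal decreases in the 2 lines. NECAP1 was at 9.22 and 7.68 in A549, a 2.90-fold lower signal with siTAZ, and at 10.38 and 9.77 in H441, where it was 1.52-fold lower. After WWTR1 it was the most lowered gene of A549, and it held rank 106 of 12740 in H441. BNIP2 was at 9.45 and 8.36 in A549 and at 9.30 and 8.76 in H441, 2.13-fold and 1.46-fold lower. Its order between the lines thus turned, with A549 above H441 on the siNTC arrays and below it on the siTAZ arrays. Both siTAZ arrays of BNIP2 lay below both controls, so 4 of the 8 genes had this order, with CHCHD3, DCTN5 and ERLIN1. The genes were chosen on these decreases, so the order is no further result. The share of all genes with it is not given here.

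**Figure D1:**
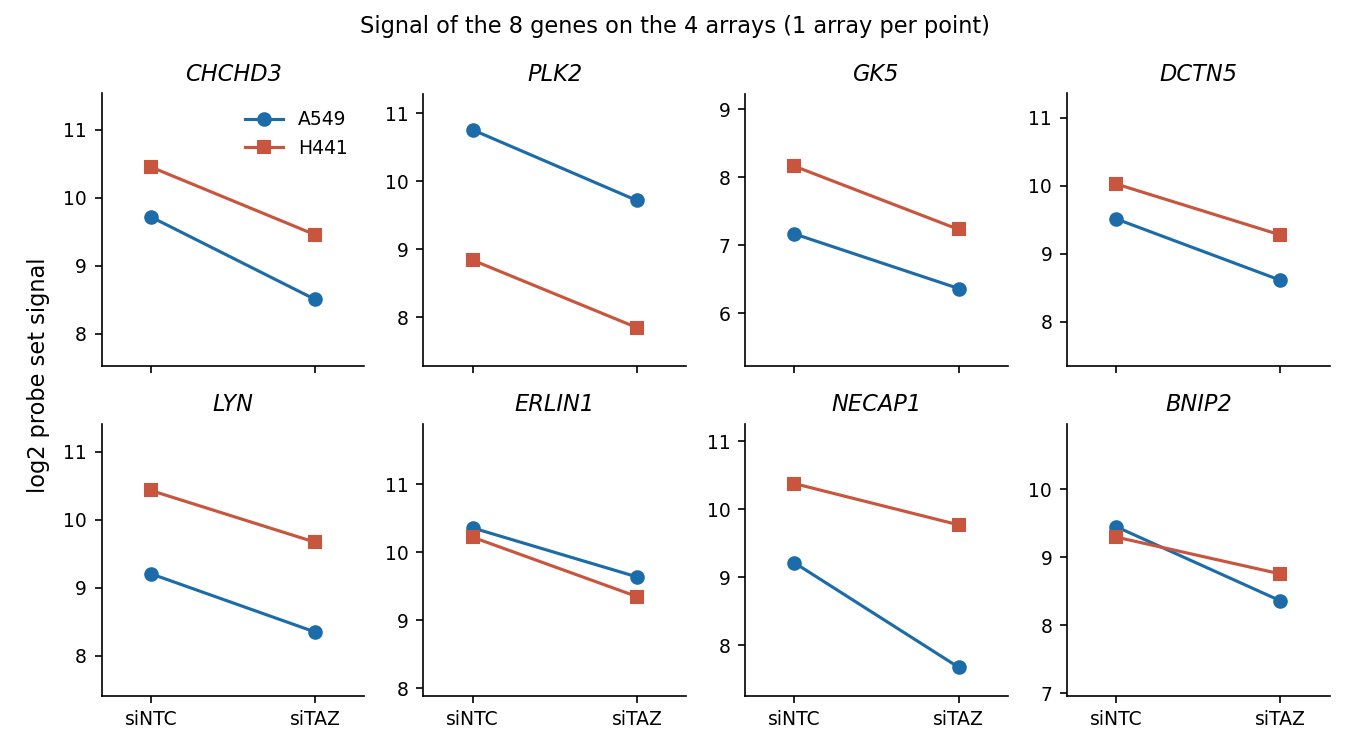
Log2 probe set signal of each of the 8 genes (vertical axis, each panel spanning 4 log2 units) with siNTC and siTAZ, in A549 (circles) and H441 (squares); each point is 1 array. Every line falls from left to right, in near parallel for PLK2 (10.76 to 9.72 and 8.84 to 7.85) and at unlike slopes for NECAP1 (9.22 to 7.68 and 10.38 to 9.77).

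In A549 the log2 differences (siTAZ minus siNTC) of the 8 genes ran from -1.54 for NECAP1 to -0.72 for ERLIN1, with a median of -0.97. Over all 12740 genes the median difference was 0.0037. All 8 were at least 1.5-fold lower in A549, a size that 0.981% of the genes reached, and 4 were at least 2-fold lower (NECAP1, CHCHD3, BNIP2 and PLK2). In H441 the differences ran from -0.997 for CHCHD3 to -0.54 for BNIP2, with a median of -0.82, against 0.01 over all genes. There 7 of the 8, all but BNIP2, were at least 1.5-fold lower, as were 0.911% of all genes, and 0 were 2-fold lower. After centring the arrays on their medians the H441 count was 8, and after quantile normalization or cyclic loess it was 6. At least 1.5-fold lower in both lines were 25 genes (0.196%), 7 of them from this group. The genes were chosen on these values, so the counts say nothing further.

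Ordered by the size of the decrease among the 12740 genes, CHCHD3 held rank 6 in A549 and 5 in H441, PLK2 rank 12 and 6, and DCTN5 rank 18 and 28. LYN held rank 29 and 26, GK5 rank 36 and 8, and ERLIN1 rank 67 and 10. In H441 CHCHD3 and PLK2 thus stood highest of the 8, while in A549 NECAP1 did, and GK5 and ERLIN1 stood higher in H441 than in A549. BNIP2 held rank 10 in A549 and 165 in H441.

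The decrease was larger in A549 for 6 of the genes and larger in H441 for GK5 and ERLIN1. For 6 genes the 2 differences lay within 0.25 of each other, from 0.05 apart for PLK2 to 0.22 for CHCHD3, as they did for 69.6% of all genes. The exceptions were NECAP1, 0.93 apart, and BNIP2, 0.55 apart, both in the top decile of all genes (0.42 or more). No test of a difference in response between A549 and H441 was possible, since a model with that term would use up all 4 arrays.

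**Figure D2:**
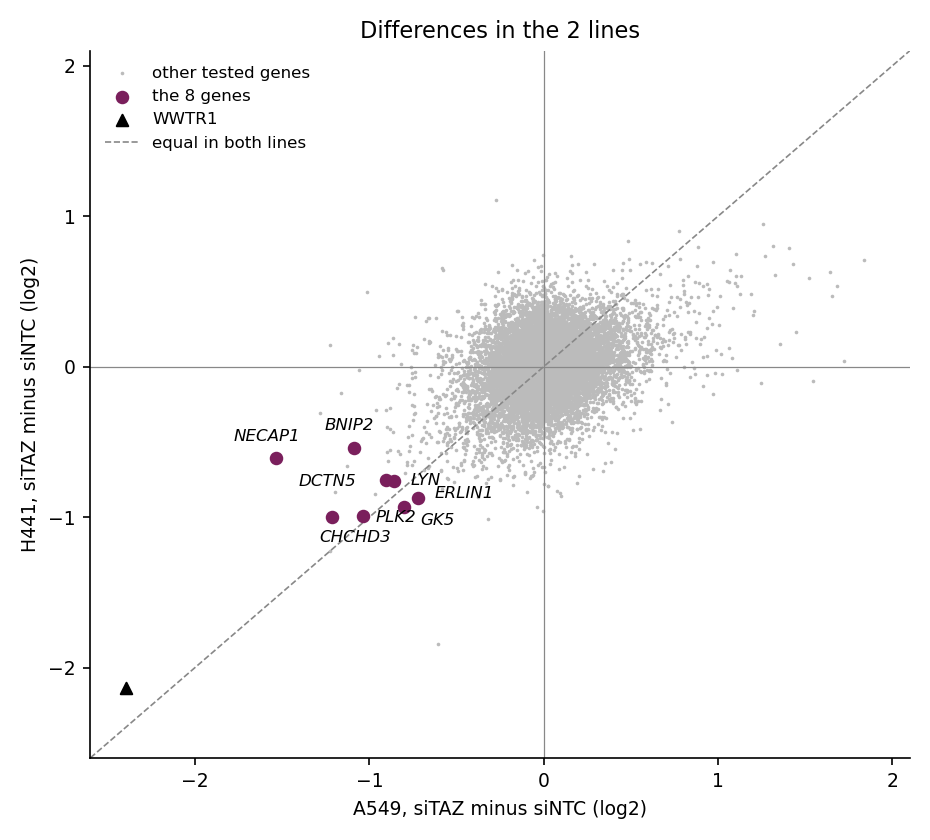
Log2 difference between siTAZ and siNTC in A549 (horizontal axis) and in H441 (vertical axis) for 12740 genes, each a grey point; the 8 genes are filled circles, WWTR1 is a triangle and the dashed line marks equal differences. Of the 8, 6 lie near the dashed line, while NECAP1 (-1.54 and -0.61) and BNIP2 (-1.09 and -0.54) lie above it.

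The promoter table of RefSeq (GRCh38.p14) held 5 of the 8 genes, with 6 starts in all, since BNIP2 has 2. LYN, GK5 and ERLIN1 were not among its entries. The 250 bases before the start are given for 4 genes: CHCHD3 and PLK2, which had the largest decreases of the 8 in H441, DCTN5, the holder of a TEAD core, and NECAP1, the most lowered of the 8 in A549. Capitals mark every match, on either strand, to the TEAD core CATTCC, the AP-1 site TGANTCA, the GC box GGGCGG, the CCAAT box CCAAT and the TATA box TATAAA. Each sequence reads 5′ to 3′ on the strand of the gene, and the 5 motifs did not overlap in these windows.
CHCHD3, chr7:133082091-133082340, minus strand: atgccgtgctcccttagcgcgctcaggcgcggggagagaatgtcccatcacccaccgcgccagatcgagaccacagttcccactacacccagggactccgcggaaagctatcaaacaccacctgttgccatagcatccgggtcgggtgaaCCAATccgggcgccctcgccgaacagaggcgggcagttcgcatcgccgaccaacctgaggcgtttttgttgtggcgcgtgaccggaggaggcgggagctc
PLK2, chr5:58460087-58460336, minus strand: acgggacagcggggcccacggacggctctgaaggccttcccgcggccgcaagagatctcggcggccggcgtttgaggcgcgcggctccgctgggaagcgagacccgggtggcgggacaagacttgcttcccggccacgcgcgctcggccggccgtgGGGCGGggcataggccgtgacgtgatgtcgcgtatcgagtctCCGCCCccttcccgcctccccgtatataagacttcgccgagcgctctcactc
DCTN5, chr16:23641216-23641465, plus strand: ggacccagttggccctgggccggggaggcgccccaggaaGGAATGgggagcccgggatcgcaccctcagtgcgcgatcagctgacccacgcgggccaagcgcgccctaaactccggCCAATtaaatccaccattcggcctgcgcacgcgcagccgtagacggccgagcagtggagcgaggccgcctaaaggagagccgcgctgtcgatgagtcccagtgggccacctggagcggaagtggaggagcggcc
NECAP1, chr12:8082024-8082273, plus strand: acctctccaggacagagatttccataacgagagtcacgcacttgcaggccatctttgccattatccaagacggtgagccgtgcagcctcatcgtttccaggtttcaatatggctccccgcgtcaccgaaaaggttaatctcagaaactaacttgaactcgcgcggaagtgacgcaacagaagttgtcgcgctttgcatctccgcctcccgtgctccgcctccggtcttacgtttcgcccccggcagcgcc

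The DCTN5 window held 1 TEAD core, whose first base lay 211 bases before the start, and a CCAAT box 134 bases before it. The TEAD core was in 1 of the 6 windows of these genes and in 11.9% of all 35116 windows of that length. A CCAAT box lay 100 bases before the start of CHCHD3, and PLK2 had GC boxes 94 and 52 bases before its start. NECAP1 held none of the 5 motifs. A GC box was in 3 of the 6 windows against 42.6% of all windows, and a CCAAT box in 3 of the 6 against 32% of all windows. The AP-1 site (6.57% of all windows) and the letters TATAAA (10.7%) were in 0 of the 6. Other forms of the TATA box were not searched, and the PLK2 window holds tatataag near its end, which TATAAA does not match. The 6 windows were 56% to 71.2% G and C and held 18 to 37 CpG dinucleotides, where the medians of all windows were 58% and 11. A match is a run of letters and not a shown site.

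The level of a gene in A549 against H441 was not itself a rule of choice and was tested, as the cell line coefficient of 1 limma fit over the 4 arrays. That coefficient averages the siNTC and siTAZ gaps, and the genes were chosen on decreases seen on the siTAZ arrays. The test is therefore not independent of the choice where the gaps differ, most of all for NECAP1 and BNIP2. The level differed for 6 of the 8 genes at a Benjamini-Hochberg adjusted p under 0.05, with 5 higher in H441 and PLK2 higher in A549. The same calls were made for 52.8% of all genes as higher in H441 and for 19.0% as higher in A549, so 5 and 1 of 8 are near the background. That background leaned on the scaling, since the median A549 minus H441 difference over all genes was -0.31 as deposited and near 0 (-0.00028) after quantile normalization, with 32.7% then called higher in H441 and 32.1% higher in A549. Each SE draws mostly on a prior taken from all genes.

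PLK2 averaged 10.24 over the 2 A549 arrays and 8.35 over the 2 H441 arrays, a 3.71-fold higher signal in A549 (1.89 ± 0.12 on the log2 scale, SE, limma adjusted p = 5.4e-13). The gap was the same size with either siRNA, 1.92 on the siNTC arrays and 1.87 on the siTAZ arrays. NECAP1 lay the other way, with means of 8.45 and 10.08, 3.09-fold higher in H441 (-1.63 ± 0.15 SE, limma adjusted p = 1.1e-09). Its gap was -1.16 with siNTC and -2.09 with siTAZ, so the lines stood farther apart after silencing. The value of -1.63 thus includes part of the A549 decrease on which NECAP1 was chosen, and its p-value is not free of that choice. LYN averaged 8.78 and 10.05, 2.42-fold higher in H441 (-1.27 ± 0.12 SE, limma adjusted p = 9.0e-10), with gaps of -1.22 and -1.32.

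GK5 was 1.91-fold higher in H441 (-0.93 ± 0.12 SE, limma adjusted p = 1.8e-07) and CHCHD3 1.79-fold higher (-0.84 ± 0.12 SE, adjusted p = 9.9e-07). After quantile normalization CHCHD3 had -0.43 (limma adjusted p = 0.00627) and after cyclic loess -0.44 (adjusted p = 0.00869), while GK5 had -0.66 and -0.64, LYN -0.87 in both, and all kept their calls. For GK5 and CHCHD3 the siNTC and siTAZ gaps differed by 0.13 and 0.22. DCTN5 was 1.505-fold higher in H441 (-0.59 ± 0.12 SE, limma adjusted p = 1.0e-04). This call was lost after quantile normalization (-0.20, adjusted p = 0.145) and cyclic loess (-0.19, adjusted p = 0.155).

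ERLIN1 had a difference of 0.21 ± 0.12 SE (limma adjusted p = 0.108) and BNIP2 one of -0.12 ± 0.13 SE (adjusted p = 0.406), and neither passed. ERLIN1 passed as higher in A549 after each other scaling, with 0.36 after median centring (limma adjusted p = 0.0107), 0.62 after quantile normalization and 0.61 after cyclic loess. The sign of the BNIP2 difference turned with the scaling, to 0.03 after median centring and 0.27 after quantile normalization and after cyclic loess, and it passed under none of these (limma adjusted p of 0.851, 0.107 and 0.137). As deposited, BNIP2 had 0.15 on the siNTC arrays and -0.40 on the siTAZ arrays, the only sign change among the 8 genes. The sign of its -0.12 thus came from the siTAZ arrays, which were used in the choice.

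**Figure D3:**
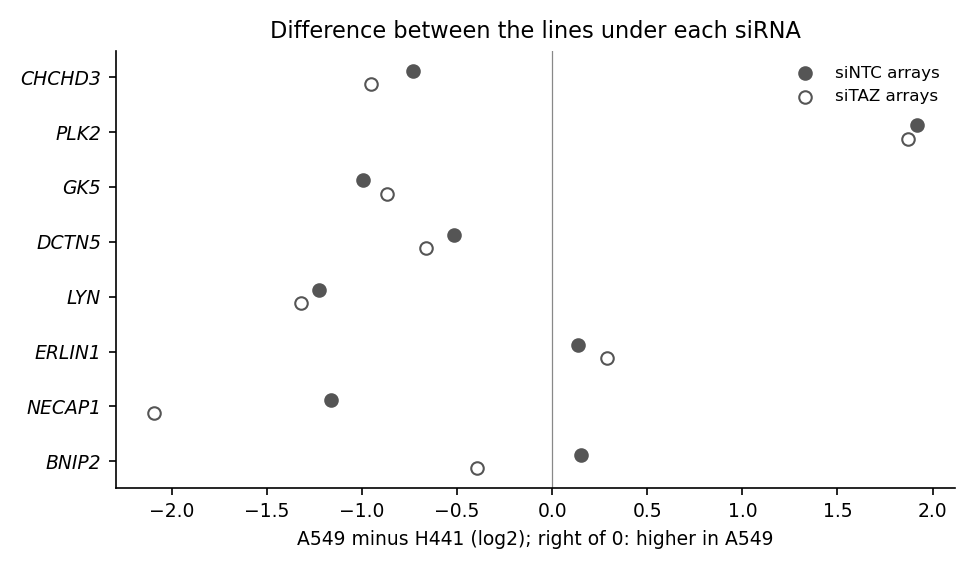
A549 minus H441 log2 signal of each of the 8 genes, with siNTC (filled) and with siTAZ (open); each point is the difference of 2 arrays and values right of 0 are higher in A549. PLK2 lies at 1.92 and 1.87, NECAP1 at -1.16 and -2.09, and BNIP2 is the gene whose points lie on both sides of 0.

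Genes of the same complex, family or process were set beside each of the 8, in 8 lists of 136 genes drawn from textbook knowledge. They were not picked by how they moved, though earlier results of these data were known when the lists were made. Of the 136 genes, 129 had a single-symbol probe set and 119 passed the filter. Over both lines 3 of the 119 fell and 0 rose in the limma fit of siTAZ against siNTC with cell line as a block, against 1.29% of all genes that fell and 1.19% that rose. An unadjusted limma p under 0.05 was reached by 16 of the 119 (13.4%), as by 13.2% of all genes. The median difference of the 119 was 0 in A549 and -0.02 in H441, with 3 genes of exactly 0 in A549. In A549 0 of the 119 were 1.5-fold lower by the probe set tested, and in H441 2 were, MTX3 and BORA. Of all genes 0.981% were so in A549 and 0.911% in H441, so both counts are near the background.

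The 3 that fell were BORA, DCTN4 and PTPN11. BORA, an activator of PLK1 in the list of PLK2, was at 7.12 with siNTC and 6.76 with siTAZ in A549, and at 7.80 and 7.17 in H441 (-0.50 ± 0.12 SE over both lines, limma adjusted p = 0.0238). DCTN4, a neighbour of DCTN5 in the pointed-end part of dynactin, was at 8.97 and 8.48 in A549 and at 10.14 and 9.76 in H441 (-0.43 ± 0.12 SE, adjusted p = 0.0499). PTPN11, which encodes the phosphatase SHP2 and was in the list of LYN, was at 10.51 and 10.05 in A549 and at 11.32 and 10.81 in H441 (-0.49 ± 0.12 SE, adjusted p = 0.0228). In each line the siTAZ array was below the siNTC array for all 3, with differences of -0.63 to -0.36. None of the 3 calls was kept without the filter, after quantile normalization or after cyclic loess, where their adjusted p ran from 0.0636 to 0.187, or without cell line in the fit (adjusted p of 1). DCTN4 also lost its call with the mean of the probe sets of a gene (limma adjusted p = 0.0524).

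In the MICOS list of CHCHD3, 0 of 12 tested genes passed, with a median difference of -0.05 in A549 and of -0.10 in H441. MTX3, a metaxin of the outer membrane, had differences of -0.20 and -0.66 (limma adjusted p = 0.071), and APOO, a MICOS subunit, had -0.02 and -0.40. IMMT, the core MICOS subunit, named after its values were seen, had 0.10 and 0.08. In the list of PLK2, of polo-like kinases and centriole genes, BORA was the only one of 10 to pass, and the medians were 0.04 and -0.14. CEP192, a centrosome scaffold, had 0.14 and -0.48.

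In the dynactin and dynein list of DCTN5, DCTN4 was the only one of 21 to pass and the medians were 0.01 and -0.02. DYNLT1, a dynein light chain, had -0.07 and -0.52 (limma adjusted p = 0.287). ACTR10, another pointed-end subunit, also named after its values were seen, had 0.05 and -0.28 (adjusted p = 0.774). In the clathrin and AP-2 list of NECAP1, 0 of 26 passed, with medians of 0.02 and 0.0031. AAK1, the kinase of the AP-2 complex, had -0.30 and -0.31 (adjusted p = 0.208). Its probe sets disagreed in size, since the other AAK1 probe set, which was not the one tested, had -0.61 and -0.47. EPN2, an epsin, had -0.47 and -0.01. 

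In the list of LYN, of Src-family kinases and their regulators, PTPN11 was the only one of 15 to pass and the medians were -0.09 and -0.03. FGR, a kinase of the family, had -0.15 and 0.50 (limma adjusted p = 0.639). In the list of ERLIN1, of its complex and of degradation from the endoplasmic reticulum, 0 of 18 passed, with medians of 0.11 and 0.02. INSIG1, the sterol-regulated anchor of SREBP, had 0.34 and 0.46 (adjusted p = 0.0737), and ITPR3, an IP3 receptor, had 0.32 and 0.30 (adjusted p = 0.199). Both genes had differences opposite in sign to those of ERLIN1. Of the 18 only 5 were lower in A549 and 7 in H441, so that sign was common in the list.

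In the glycerol list of GK5, 0 of 8 passed and the medians were 0.0055 and -0.01. AQP3, a channel for water and glycerol, had 0.58 and 0.20 (limma adjusted p = 0.105), and MGLL, a monoglyceride lipase, had -0.29 and -0.37 (adjusted p = 0.163). In the list of BNIP2, of BCH domain and BNIP genes, 0 of 9 passed, with medians of -0.07 and 0.04. BNIP3L, a mitophagy receptor, had 0.31 and 0.26 (adjusted p = 0.254).

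**Figure D4:**
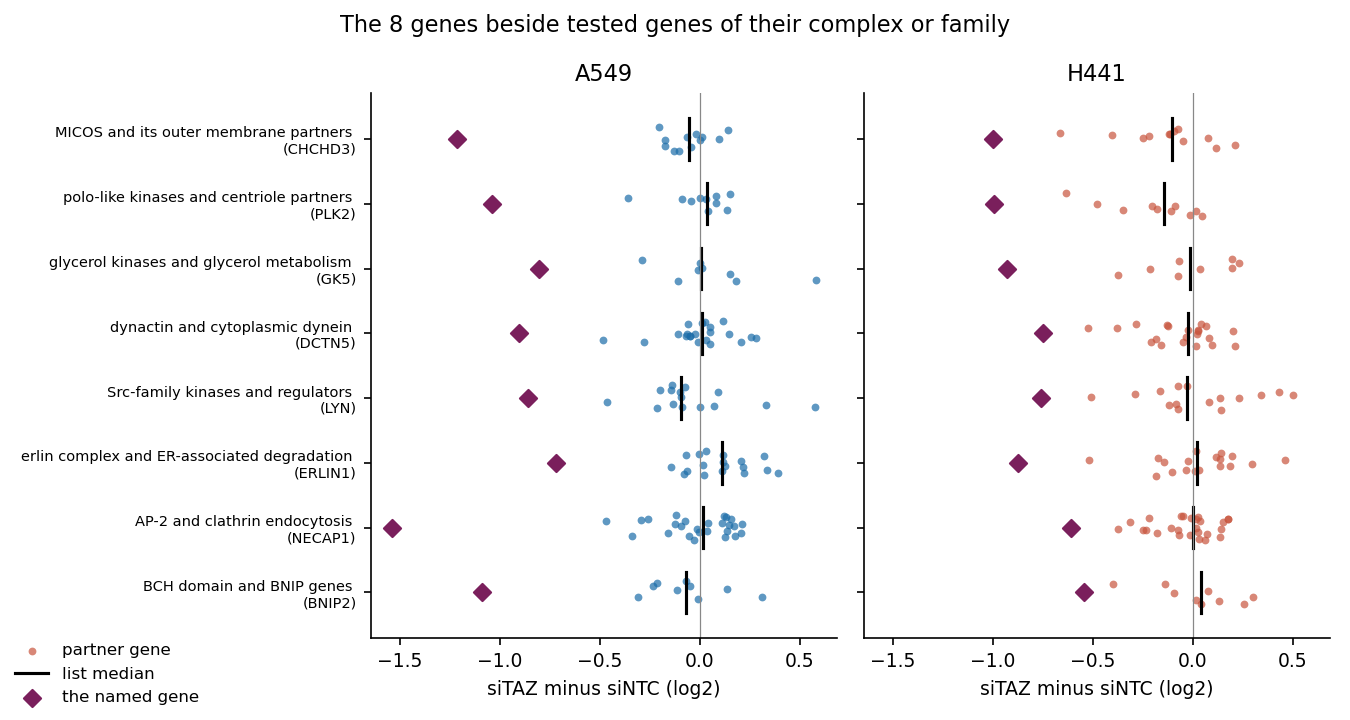
Log2 difference between siTAZ and siNTC in A549 (left) and H441 (right) of the 119 tested genes of the 8 lists (points, spread vertically within a list for sight only), with the list median (bar) and the gene each list belongs to (diamond). List medians lie between -0.14 and 0.11, and the diamonds lie between -1.54 and -0.54.

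The closest relative of each gene was taken in turn. Of 8 such genes, 6 had a single-symbol probe set and 5 passed the filter. Their differences lay between -0.21 and 0.05 in both lines, and 0 of the 5 passed the limma test, with 0 at an unadjusted p under 0.05. Of all genes 1.29% passed as lower and 1.19% as higher, and 13.2% had an unadjusted p under 0.05, so 0 of 5 is near the background. CHCHD6, a second CHCH domain subunit of MICOS, was at 7.35 and 7.22 in A549 and at 8.03 and 7.98 in H441 (mean difference -0.09, 95% interval of the limma fit -0.33 to 0.15). PLK3 had 0.04 in A549 and 0.05 in H441 (0.04, interval -0.20 to 0.29). NECAP2 had -0.06 and -0.07 (-0.06, interval -0.30 to 0.18). DCTN6, a pointed-end dynactin subunit related to DCTN5, had -0.05 and -0.21 (-0.13, interval -0.37 to 0.11), and ERLIN2, the partner of ERLIN1 in 1 complex, had -0.07 and -0.17 (-0.12, interval -0.36 to 0.12). BNIPL was below the filter on all 4 arrays (5.05 to 5.95). The intervals of the 5 tested relatives all hold 0, with -0.37 as the lowest bound, and the difference between a gene and its relative was not tested, since the first was chosen on its value.

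**Figure D5:**
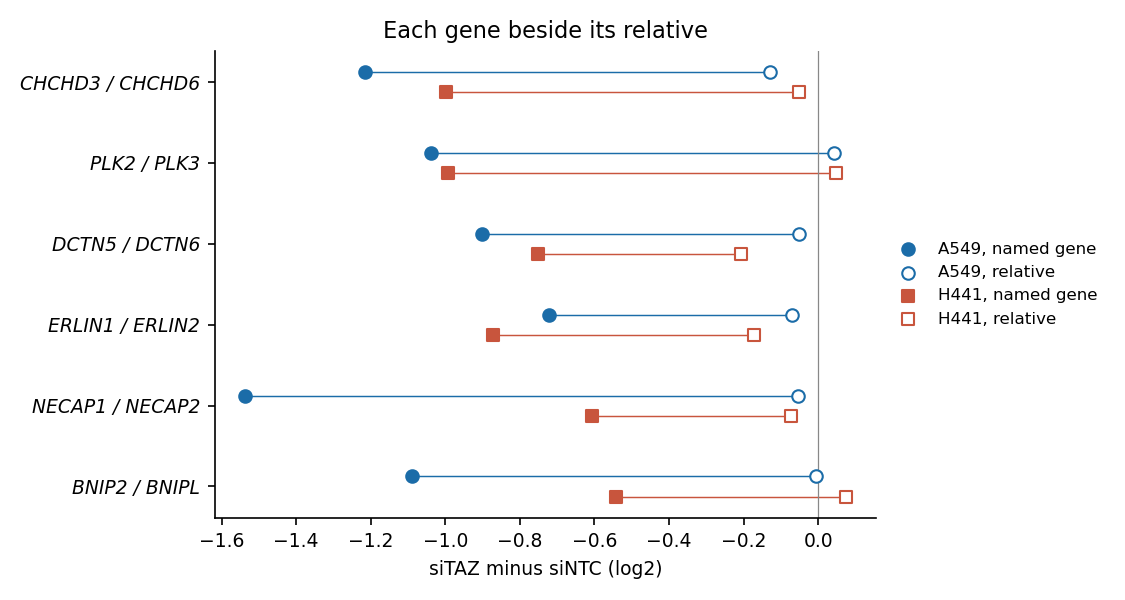
Log2 difference between siTAZ and siNTC in A549 (circles) and H441 (squares) for 6 of the genes (filled) and their closest measured relative (open), joined by a line. The open symbols lie between -0.21 and 0.08, and every filled symbol lies at or below -0.54.

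For each gene the 2 tested genes with the most similar pattern were found by the Euclidean distance of log2 signals over the 4 arrays, after subtracting each gene's own mean. These 16 places held 15 different genes, and 1 place went to a gene of the group (GK5, beside CHCHD3). All 15 were lower with siTAZ in both lines. That direction follows largely from closeness to genes chosen for such decreases and is no further result. The closest match of all was ENTR1 for BNIP2 (distance 0.15), at -0.88 in A549 and -0.55 in H441, followed by LIN52, a DREAM complex gene, for DCTN5 (0.16; -0.78 and -0.64). The other match of BNIP2 was CSRP1, a LIM domain gene (0.18; -1.13 and -0.66). YWHAH, which encodes a phosphoserine-binding adaptor, was the nearest to CHCHD3 (0.18; -1.20 and -0.83) and the second to DCTN5 (0.25).

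LYN was matched by TMEM168 (distance 0.18; -0.77 in A549 and -0.53 in H441) and DENND11 (0.22), and ERLIN1 by PTAR1 (0.18; -0.74 and -0.63) and ZFYVE16, an endosomal protein gene (0.21). GK5 was nearest to MRPL15, a mitochondrial ribosomal protein gene (0.29; -0.49 and -0.69), and NAA15, an N-terminal acetyltransferase subunit (0.31). The matches of PLK2 and NECAP1 lay farther away. For PLK2 the nearest were ITGA6, integrin alpha 6 (0.49; -0.97 and -0.85), and IL18, an interleukin gene (0.50), and for NECAP1 they were PKN2, a kinase gene (0.50; -1.22 and -1.23), and FBXO45, an F-box gene (0.53). These distances describe 4 arrays and are given with no test.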

How the data were processed

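The authors deposited 1 log2 signal per probe set and array, and the submitters' processing notes name RMA. Which version it was, and whether 1 run covered the 4 arrays, they do not state. Probe sets were named through the platform annotation, and 19310 of 28869 had 1 gene symbol. For 685 genes with several probe sets the one with the highest mean was used, which left 18377 genes.

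A linear model with terms for cell line and siRNA was fitted by limma 3.58.1 (lmFit, eBayes) under R 4.3.3, with two-sided tests, to the 12740 genes whose highest signal reached the table median. The fit has 1 residual degree of freedom and a prior worth 22.3. Calls were made at a Benjamini-Hochberg adjusted p under 0.05 over all genes. That 1 residual degree of freedom is the disagreement of the siTAZ difference between the 2 lines, since no array was repeated. The p-values thus rest mostly on a spread pooled over all genes. They do not measure the spread between repeated cultures, and they rest on 2 lines. The alternatives were 2 other filters, 3 scalings, the mean of probe sets and a fit without cell line.

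Named genes were the 8, WWTR1, their relatives, the list genes called or with the 2 largest mean absolute differences, and the 2 nearest patterns per gene. A few of these are not reported here. The members, lists and relatives were chosen with earlier results of these data known. Protein identity between relatives was not analysed here. Promoter sequences are from RefSeq (GRCh38.p14).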

Additional observations from a re-analysis of the deposited data

How the results depend on the processing

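The signed differences of the 8 genes moved by at most 0.08 under median centring, quantile normalization, cyclic loess and the mean of probe sets, and ran from -1.57 to -0.50 over all of these. The count at least 1.5-fold lower stayed at 8 in A549 and was 6 to 8 in H441. The count of list genes called by limma was 3, and was 4 after median centring and 2 with the mean of probe sets. It was 3 under the stricter filter (highest signal at or above 7.97), which left BORA untested, so another list gene took its place. Which genes the stricter filter and median centring added, and in which direction, is not reported here. The count was 0 without the filter, after quantile normalization, after cyclic loess and without cell line in the fit. At an unadjusted p under 0.05 the last 4 settings held 15, 13, 11 and 0 list genes. Of all genes, 151 were called higher and 164 lower after siTAZ, against 123 and 277 after median centring, 75 and 67 after quantile normalization, 9 and 11 after cyclic loess, 47 and 45 without the filter, and 0 and 0 without cell line in the limma fit, so the calls over all genes dropped in the same settings as those of the lists. The count of the 8 genes called between the lines was 6 or 7, and the BNIP2 line difference of -0.12 turned to 0.0301 after median centring, 0.27 after quantile normalization and 0.27 after cyclic loess. Medians of the 8 lists all moved by less than 0.12, the typical SD of the limma fit, and those of the GK5, DCTN5 and NECAP1 lists in both lines and of the ERLIN1 and BNIP2 lists in H441 took either sign. The cause of these changes was not tested. With 1 array per group no repeat of a line was left out, and signals near the table median limit what can be seen for GK5 in A549.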

Other observations

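The genes next to each of the 8 along the chromosome, by the gene order of GRCh38.p14, were looked up after the values had been seen. The nearest tested protein-coding gene on either side gave 16 genes. Of these, 0 passed the limma test of siTAZ against siNTC, where 1.29% of all genes passed as lower and 1.19% as higher. At an unadjusted p under 0.05 there were 0, against 13.2% of all genes. Lower in both lines were 6 of the 16. Of all genes 48.5% were lower in A549 and 47.5% in H441, and the share lower in both is not given here. So few genes cannot show a departure from these shares. Differences of the 16 lay between -0.23, for PODXL beside CHCHD3 in A549, and 0.70, for CPN1 beside ERLIN1 in A549. CPN1, a carboxypeptidase subunit gene, had -0.12 in H441 (limma adjusted p = 0.391). CHUK, an NF-kB pathway kinase gene on the other side of ERLIN1, had 0.07 and 0.06. PLK1, the polo-like kinase of mitosis, lies next to DCTN5 and had 0.03 in A549 and -0.09 in H441 (limma adjusted p = 0.954).

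Exact ties occurred in the deposited values. In A549, 108 of the 12740 tested genes had the same value with siNTC and siTAZ, and in H441 71 had. The 8 genes were not among them, which in A549 follows from their choice by large decreases.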
